A study of Homo sapiens with 7 samples.

Results

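Ribosome biogenesis genes encode the machinery that transcribes ribosomal RNA, cuts and modifies it, and folds it with ribosomal proteins into the small and the large ribosomal subunit. A list of 39 such genes was followed in whole-transcriptome sequencing of the esophageal squamous cell carcinoma (ESCC) lines TE5 and KYSE140. The genes were chosen by their role, with earlier results of these data known, from 56237 genes with a matched transcript, of which 27275 had at least 10 estimated counts in 1 or more libraries, and all 39 had enough counts to be compared in every pair of libraries. By role they fall into 5 genes of RNA polymerase I and its regulators, 3 nucleolar chaperones and organisers, 3 core proteins each of the box C/D and the box H/ACA small nucleolar ribonucleoproteins, 12 small subunit factors and 13 large subunit factors.

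Ribosome production begins in the nucleolus, where RNA polymerase I copies the ribosomal DNA into one long precursor. Small nucleolar RNAs (snoRNAs) guide fibrillarin and dyskerin to the bases that are to be methylated or turned into pseudouridine, while processing complexes cut the precursor and export the subunits. The transcription factor MYC is known to drive many of these genes, often through the E-box CACGTG, and growing cancer cells make large amounts of their products.

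TE5 cells carried a non-targeting scramble shRNA or an shRNA against TP63, SOX2 or CCAT1, and KYSE140 cells the scramble shRNA or an shRNA against TP63 or SOX2, so that the series holds 7 libraries with 1 library per condition. TP63 and SOX2 are transcription factors of squamous epithelium, and CCAT1 is a long non-coding RNA. The cells were grown in serum-containing medium and received the hairpins in a lentiviral vector. Library labels name 1 hairpin per target, and TE5 and KYSE140 share the labels of their TP63 and SOX2 hairpins. The paper describes TP63 hairpins that differ in the isoforms they hit, and the label does not say which of them was used. Whether a difference came from loss of the target or from another effect of its hairpin was not tested. The TE5 scramble library came from another flow cell than the 3 TE5 knockdown libraries, which shared lane 1, and the KYSE140 scramble library came from lane 2 whereas both KYSE140 knockdown libraries came from lane 3. Lane and silencing cannot be told apart where every knockdown of a line departs from its scramble in the same way, while knockdowns of a line can be compared with each other inside a lane. Every condition had 1 library, so that values within a line carry no error between replicates, and the intervals given are 95% intervals for counting error only. Squamous markers were expressed in every library, with 13 to 15 of 15 at 1 TPM or more. TPM is a read level corrected for transcript length and library size. At most 2 of 10 leukocyte, 2 of 10 fibroblast and 1 of 4 endothelial markers reached that level. Of 10 markers of simple or glandular epithelium, 5 reached it in each TE5 and 4 in each KYSE140 library. Their summed level in the TE5 shTP63 library was 3422 TPM, against 2762 TPM for the squamous markers. In every other library the squamous sum was the higher.

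The silenced genes were checked first, in normalized counts (estimated counts scaled by library size and trimmed mean of M-values, TMM). TP63 was at 26644 in the TE5 scramble library and at 6760 in the TE5 shTP63 library, and at 47896 and 12493 in the same pair of KYSE140. SOX2 was at 11923 with scramble and 4718 with shSOX2 in the TE5 pair, and in the KYSE140 pair at 28614 and 22056, so that 77.1% of it remained in the KYSE140 shSOX2 library. CCAT1, taken as a single transcript that the annotation lists under another gene's name, was at 553 and 169 in TE5 before and upon its own silencing, and it was also lower in every shTP63 and shSOX2 library, at 210 and 281 in TE5 and, from 1816, at 747 and 780 in KYSE140. SOX2 was also lower in the TE5 shTP63 library, at 8011 (67.2% of scramble), but not in the KYSE140 shTP63 library, at 29869 (104.4%). The labels and the silenced genes were in accord in all 7 libraries. Silencing of a gene by its own hairpin was weakest for SOX2 in KYSE140.

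The largest difference of the group was in TE5 cells upon TP63 silencing. There 38 of the 39 genes were lower than in the scramble library, with a median log2 fold change of -0.63, while 45.8% of all 24406 genes compared were lower and the median of all genes was 0.06. At least 1.5-fold lower were 23 members, against 14.2% of all genes, and 1 member was at least 1.5-fold higher, against 25.1% of all genes. Highly expressed genes were more often lower than weakly expressed ones in this pair, and the members are highly expressed: of the 9957 genes with a mean of at least 1000 normalized counts, 63.8% were lower and 15.9% were at least 1.5-fold lower, with a median of -0.15. Among the 37 members above this level, which leaves out only EMG1 and NOP16, all 37 were lower, between -1.03 and -0.32 with a median of -0.65, that is at 63.6% of the scramble level. The count of members past 1.5-fold depended on the scaling, being 9 without TMM factors (10.3% of all genes) and 6 in TPM (5.58% of all genes), but 38 of 39 were below 0 in each. In bulk samples fewer growing cells and less RNA per cell cannot be told apart.

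**Figure D1:**
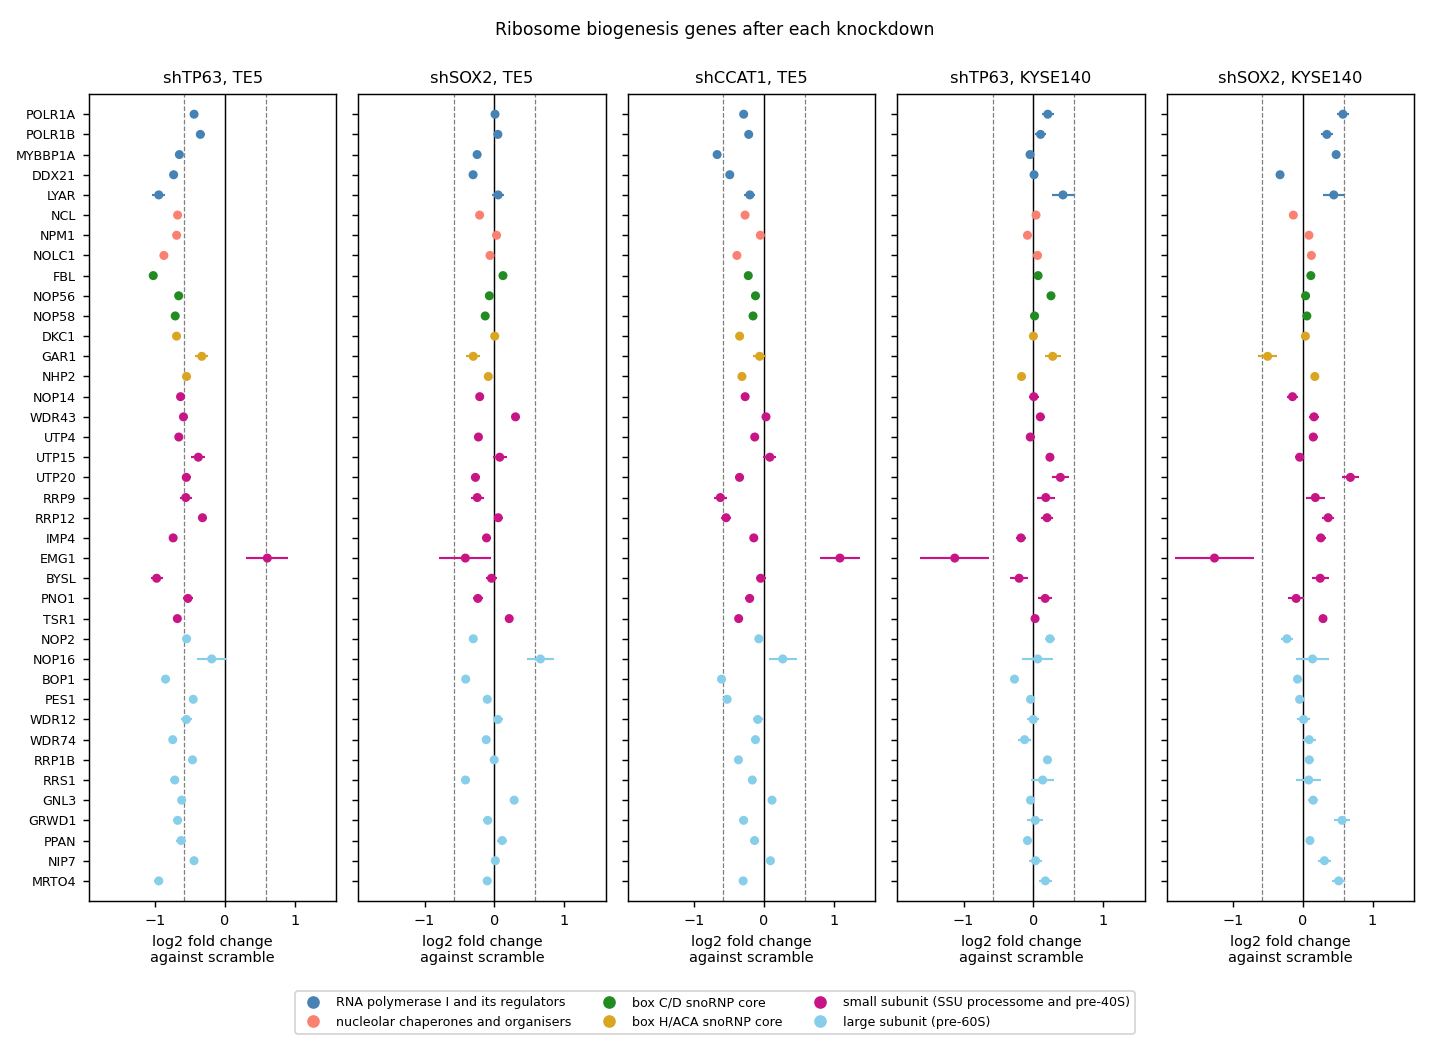
Each panel shows 1 knockdown against the scramble library of its line, with the log2 fold change of normalized counts on the horizontal axis and the 39 genes by role on the vertical axis. Points are single pairs of libraries, bars are 95% counting intervals, and dashed lines mark 1.5-fold. In the TE5 shTP63 panel 38 points lie left of 0, whereas in the KYSE140 shTP63 panel 13 do.

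The differences reached every role. The 3 box C/D proteins lay furthest down, with a median log2 fold change of -0.71. Fibrillarin (FBL), the methyltransferase of the box C/D particle, was at 7015 normalized counts in the TE5 scramble library, 3442 with shTP63, 7642 with shSOX2 and 6009 with shCCAT1. The shTP63 library was the lowest, at 49.1% of the scramble level, a log2 fold change of -1.03 (95% interval -1.08 to -0.97), and the shCCAT1 library was lower by less, with -0.22 (-0.27 to -0.18). NOP56 and NOP58, the scaffold pair of the same particle, were at -0.66 and -0.71.

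The nucleolar chaperones are among the most abundant transcripts of the group and were all at least 1.5-fold lower. NPM1, which chaperones ribosomal proteins and histones, was at 106040 normalized counts in the TE5 scramble library, 65673 with shTP63, 108383 with shSOX2 and 102433 with shCCAT1. Nucleolin (NCL), a nucleolar RNA-binding protein, was at 78349, 48992, 67698 and 65007 in the same order. The shTP63 library was the lowest of the TE5 libraries for both genes, with log2 fold changes of -0.69 and -0.68. NOLC1, a nucleolar phosphoprotein that binds both kinds of snoRNA particle, was at -0.87.

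Of the RNA polymerase I group, 5 of 5 genes were lower and 3 were at least 1.5-fold lower. LYAR, a nucleolar zinc finger protein, was at 2446 in the TE5 scramble library, 1268 with shTP63, 2540 with shSOX2 and 2128 with shCCAT1, a log2 fold change of -0.95 (95% interval -1.04 to -0.86) for shTP63. The catalytic subunits of the polymerase itself differed less. POLR1A, the largest subunit, was at 6250, 4603, 6294 and 5116 in the TE5 libraries, and POLR1B, the second largest, at 4374, 3428, 4530 and 3763, which gave -0.44 and -0.35 for shTP63. In the box H/ACA group, dyskerin (DKC1), the pseudouridine synthase, was at 12918, 7993, 12969 and 10156, a log2 fold change of -0.69, whereas NHP2 was at -0.55 and GAR1 at -0.33.

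Of the subunit factors, 11 of 12 for the small and 13 of 13 for the large subunit were lower. BYSL (bystin), which acts on the small subunit precursor, was at 2861 in the TE5 scramble library, 1452 with shTP63, 2781 with shSOX2 and 2772 with shCCAT1, so that the shTP63 library stood apart from 3 libraries that lay close together. Its log2 fold change was -0.98 (95% interval -1.06 to -0.89). BOP1, which forms a complex with PES1 and WDR12 on the large subunit precursor, was at 6818, 3782, 5128 and 4477. Its log2 fold change for shTP63 was -0.85, but -0.23 in TPM, while PES1 was at -0.45 and WDR12 at -0.55 in normalized counts. The well-counted member that differed least was RRP12, with -0.32. EMG1, a methyltransferase of the small subunit, was the 1 member that was higher, at 139 normalized counts in the scramble and 212 in the shTP63 library. Its value rests on 1 matched transcript with 37 to 373 estimated counts per library, 52.2% of whose 31-base words also occur in transcripts of other genes, and NOP16, with 264 to 528, is likewise thinly counted.

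**Figure D2:**
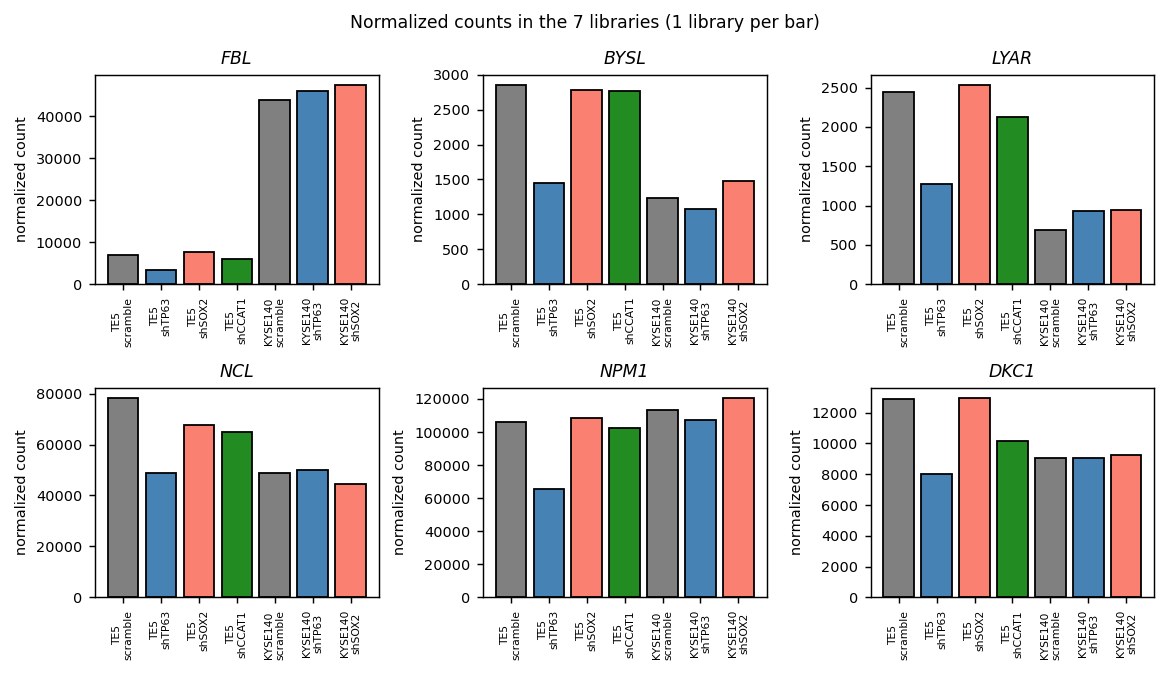
Normalized counts (vertical axes, from 0) of 6 members in the 7 libraries, 1 library per bar, with grey for scramble, blue for shTP63, red for shSOX2 and green for shCCAT1. In TE5 the shTP63 bar is the lowest for all 6 genes, and FBL is several-fold higher in KYSE140 than in TE5. In KYSE140 the bars differ most for LYAR (shTP63 at 134% and shSOX2 at 136% of scramble) and BYSL (86.9% and 119%), and less for the others.

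The same genes stood lower when the shTP63 library was set against other knockdowns from its own lane. Against TE5 shSOX2, 38 of 39 members were lower in TE5 shTP63 with a median of -0.46, and 16 were at least 1.5-fold lower, where 46.9% of all genes, and 61.3% of those with a mean of at least 1000 normalized counts, were lower and 14.7% of all genes were at least 1.5-fold lower. FBL was at -1.15, LYAR at -1.002 and BYSL at -0.94 in this comparison. Against TE5 shTP63, the shCCAT1 library had 35 members higher and 4 lower (49.9% of all genes) with a median of 0.46, and had 9 members at least 1.5-fold higher, where 19.4% of all genes were. The comparisons share the shTP63 library, so that they are not independent of each other. Without the scramble library and its other flow cell the direction was thus the same and the size smaller.

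**Figure D3:**
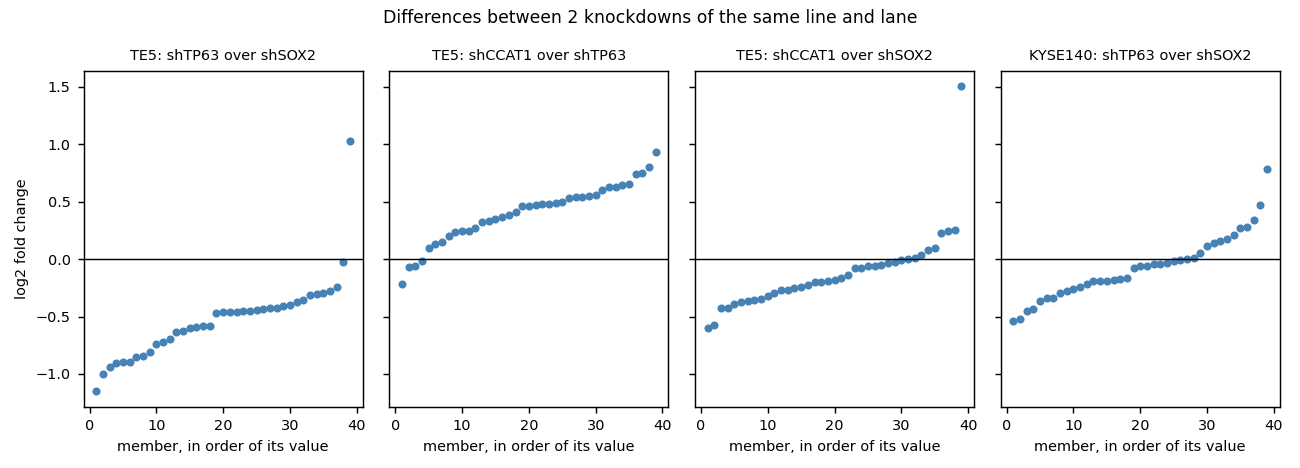
Log2 fold change (vertical axis) of the 39 members between 2 knockdowns of the same line, sorted by value within each panel (horizontal axis). TE5 shTP63 lies below shSOX2 for 38 members, and shCCAT1 above shTP63 for 35, while the KYSE140 panel spreads around 0.

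MYC was lower in the same library. It was at 11557 normalized counts in the TE5 scramble library, 3370 with shTP63, 14793 with shSOX2 and 8876 with shCCAT1, which is 29.2% of the scramble level upon TP63 silencing. In KYSE140 it was at 11196, 6369 and 10323 with scramble, shTP63 and shSOX2, that is 56.9% of the scramble level upon TP63 silencing, where the members' median log2 fold change was 0.032. Its part in the members' values was not tested.

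The start sites of the members were searched for the E-box, because MYC binds it and the members moved together. In the hg19 genome, with the start of each gene's most abundant protein-coding transcript as reference, the palindrome CACGTG was present between 250 bases before and 50 bases after the start in 17 of 39 members (43.6%) and in 9.99% of 11996 genes with a mean of at least 1 TPM. Between 1000 bases before and 1000 bases after, it was present in 69.2% of members and in 32.2% of genes. The windows below show the E-box in capitals with 12 bases on either side, on the strand of the gene, for members with large (BYSL, MRTO4), middling (WDR43, GNL3) and small (GAR1, RRP12) differences upon TP63 silencing in TE5:
BYSL (chr6:41889253-41889282, plus strand): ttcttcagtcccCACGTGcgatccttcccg
MRTO4 (chr1:19578301-19578330, plus strand): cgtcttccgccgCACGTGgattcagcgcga
WDR43 (chr2:29117524-29117553, plus strand): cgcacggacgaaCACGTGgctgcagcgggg
GNL3 (chr3:52720042-52720071, plus strand): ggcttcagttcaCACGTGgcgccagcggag
GAR1 (chr4:110736937-110736966, plus strand): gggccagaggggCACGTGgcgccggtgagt
RRP12 (chr10:99161048-99161077, minus strand): ctacagggtatcCACGTGggttctgagcgt
The first base of these E-boxes lay 28, 14, 3, 6, 31 and 32 bases after the start site in this order. Members with and without the E-box in the shorter window differed little in TE5 upon TP63 silencing, with medians of -0.59 over 17 and -0.68 over 22 genes, and FBL, the member with the lowest value, had none there. The core of the SOX motif, CATTGT on either strand, was present in the shorter window in 10.3% of members and 5.58% of genes, and in the longer window in 35.9% of members and 42.8% of genes. A pair of p53 family half-sites, CATG and another CATG with 6 bases between them, was present in the shorter window in 0 of 39 members and 0.217% of genes, and in the longer window in 2.56% of members and 2.78% of genes. A match is a description of letters and says nothing of binding.

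Another feature the members shared is that 8 of 39 (20.5%) hold snoRNA genes within their own span on the same strand, compared with 2.14% of 19426 protein-coding genes. These were NCL, NOP56, NOP58, DKC1, WDR43, TSR1, GNL3 and PPAN, with 21 annotated snoRNA entries in all. Examples are SNORD20 and SNORD82 inside NCL and SNORA36A and SNORA56 inside DKC1. The entries inside WDR43 include SNORD53_SNORD92 beside SNORD53 and SNORD92, so that not every entry need be a separate snoRNA. In TE5 upon TP63 silencing these 8 genes lay between -0.71 and -0.59 with a median of -0.67. The other 31 ranged from -1.03 to 0.61 with a median of -0.56. The upper end is the thinly counted EMG1, and the well-counted members ended at -0.32. A range over 31 genes tends to be wider than a range over 8 by number alone. Counts here are sums over all matched transcripts of the host genes and not counts of the snoRNAs. Transcripts that keep an intron are included, with 0% (NOP56) to 26.7% (PPAN) of a host's counts in the TE5 scramble library.

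In KYSE140 TP63 silencing left the group near its scramble level, although TP63 itself was reduced as far as in TE5. Lower were 13 of 39 members and 45.1% of all genes, with a median log2 fold change of 0.032 for the members and 0.049 for all genes. At least 1.5-fold lower was 1 member, EMG1, against 9.98% of all genes, and 0 members were at least 1.5-fold higher, against 16.6%. The 37 well-counted members lay between -0.27 (BOP1) and 0.43 (LYAR). LYAR was at 693 normalized counts with scramble and 931 with shTP63, FBL at 43888 and 46014, NPM1 at 113545 and 107132, NCL at 48809 and 50140, DKC1 at 9047 and 9054, and BYSL at 1240 and 1077. Set against KYSE140 shSOX2 from the same lane, KYSE140 shTP63 was lower for 27 of 39 members with a median of -0.062. There 49.3% of all genes and 58.4% of those with a mean of at least 1000 normalized counts were lower. The members' median was 0.094 without TMM factors and 0.11 in TPM, and that of all genes moved as well, from 0.0095 to 0.165 and 0.103. The members' median minus that of all genes was -0.072 with TMM factors, -0.071 without them and 0.0054 in TPM. Over both lines, 12 members were lower upon TP63 silencing in each line and 26 were lower in TE5 and higher in KYSE140, and no member was past 1.5-fold in the same direction in both. These counts depended on the scaling, being 20 and 18 with DESeq2 size factors and 7 and 31 without TMM factors. With DESeq2 size factors the median in KYSE140 was -0.014 for the members and 0.003 for all genes, so that both moved. The counts over both lines were not made for all genes, so that whether the members differ from other genes in them is not known. With 1 library per condition the difference between the lines has no test.

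SOX2 silencing gave small differences in both lines. In TE5, 24 of 39 members and 50.6% of all genes were lower, the members' median was -0.09, and 0 members were at least 1.5-fold lower, against 11.8% of all genes. NOP16 was the 1 member at least 1.5-fold higher (13.2% of all genes), at 344 and 544 normalized counts, and it was not past that size when protein-coding transcripts alone were counted. WDR43 and GNL3 were next, at 0.30 and 0.28, and RRS1 and BOP1, both large subunit factors, were lowest of the well-counted members, both at -0.41. In KYSE140, 10 of 39 members and 44.9% of all genes were lower, with a median of 0.11 for the members. The direction against scramble in KYSE140 depended on the scaling, since 18 members were lower without TMM factors (median 0.0215) and 23 in TPM (median -0.050). The median of all genes moved as well, from 0.055 to -0.038 without TMM factors and to -0.060 in TPM. The members' median lay above that of all genes by 0.060 with TMM factors, 0.059 without them and 0.01 in TPM. UTP20, a large scaffold of the small subunit processome, was at 1170 and 1879, the 1 member at least 1.5-fold higher where 14.3% of all genes were. POLR1A was at 2506 and 3734, and GRWD1, a chaperone of ribosomal protein L3, at 1387 and 2049, both just inside 1.5-fold with 0.58 and 0.56. EMG1 was the 1 member at least 1.5-fold lower, where 12.9% of all genes were. GAR1, at 1329 and 937, and DDX21, an RNA helicase that acts with RNA polymerase I, at 12712 and 10136, had the next lowest values, -0.50 and -0.33. UTP20 had a value of the opposite sign in TE5, at -0.27.

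CCAT1 silencing, done in TE5 alone, left 33 of 39 members lower with a median of -0.20, whereas 48.2% of all genes, but 64.7% of the genes with a mean of at least 1000 normalized counts, were lower. At least 1.5-fold lower were 3 members, against 12.2% of all genes. MYBBP1A, a nucleolar protein that represses ribosomal RNA synthesis, was at 8807 normalized counts with scramble and 5537 with shCCAT1. RRP9, a protein of the U3 particle, was at 2183 and 1417, and BOP1 at 6818 and 4477. Their log2 fold changes were -0.67, -0.62 and -0.61. EMG1 was the 1 member at least 1.5-fold higher (19.9% of all genes), at 139 and 296 normalized counts. The median and the count moved with the scaling: without TMM factors 21 of 39 members were lower with a median of -0.03, and 0 were at least 1.5-fold lower. With the factors, the 37 well-counted members had a median of -0.22 and all genes of at least 1000 normalized counts one of -0.10. Against shSOX2 from the same lane, shCCAT1 was lower for 31 of 39 members with a median of -0.18, where 47.3% of all genes and 58.9% of those with a mean of at least 1000 normalized counts were lower.

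The only test that the design allowed takes TE5 and KYSE140 as replicates of a silencing, in a fit of 6 libraries with the line as a block (edgeR, quasi-likelihood, Benjamini-Hochberg adjustment over 23439 genes). Upon TP63 silencing 0 members passed an adjusted p of 0.1, where 0.939% of all genes did. All 39 estimates were below 0 with a median of -0.30, and 5 members, BOP1, BYSL, IMP4, NHP2 and WDR74, had an unadjusted p under 0.05, all lower, where 14.4% of all genes had one and 8.19% had one and were lower. BOP1 came closest, with a log2 fold change of -0.55 ± 0.16 (SE) and an adjusted p of 0.213 in edgeR, and it was lower in both lines. Its TE5 value upon TP63 silencing depended on the measure, with -0.85 in normalized counts and -0.23 in TPM. Protein-coding transcripts held 86.8% of its counts in the TE5 scramble and 72.1% in the TE5 shTP63 library. DESeq2 called 1 member, BOP1, with an adjusted p of 0.0508, where 7.9% of all genes were called. Between TP63 and SOX2 silencing, which leaves the scramble libraries out of the contrast, edgeR called 0 members where 4.22% of all genes were called, and 8 members, all lower, were at an unadjusted p under 0.05, where 17.5% of all genes were, 9.06% of them lower ones. The lowest adjusted p was 0.173 for BYSL, with -0.66 ± 0.21 (SE). DESeq2 called BYSL, IMP4 and TSR1 in this contrast, all lower upon TP63 silencing, where 11.2% of all genes were called. Upon SOX2 silencing edgeR and DESeq2 both called 0 members, where they called 0.145% and 3.0% of all genes, and 0 members had an unadjusted p under 0.05 in either, where 8.95% of all genes had one in edgeR. The result turned on single libraries. Without TE5 shTP63, 23 of 39 estimates for TP63 silencing were below 0 with a median of -0.011, and without the TE5 scramble library 25 were, with a median of -0.14, and in both cases 0 members had an unadjusted p under 0.05. Without KYSE140 shTP63, so that the TE5 library stood alone for TP63 silencing and was assumed to vary like the rest, 18 members were called lower by edgeR upon TP63 silencing and 15 against SOX2 silencing, NPM1, FBL, DKC1, NOP56 and NOP58 among both, where 5.21% and 5.66% of all genes were called lower.

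Other genes of the pathway, from lists of 111 genes, were mostly lower in TE5 upon TP63 silencing, by less than the members. Lower were 94 of 111 (45.8% of all genes and 63.8% of those with a mean of at least 1000 normalized counts), with a median of -0.33. At least 1.5-fold lower were 21 of 111, not far from the 14.2% of all genes and the 15.9% of genes above that level. By role the medians were -0.23 for 14 further RNA polymerase I subunits and initiation factors, -0.66 for 9 snoRNP assembly factors and core proteins, -0.36 for 40 small subunit and -0.29 for 48 large subunit factors. In KYSE140 upon TP63 silencing, 44 of 111 were lower, with a median of 0.05, where 45.1% of all genes were lower. In the edgeR fit over both lines 3 of the 111 fell upon TP63 silencing and 0 rose, where 0.742% of all genes fell. An unadjusted p under 0.05 was held by 16, all lower, where 8.19% of all genes had one and were lower and 14.4% had one in either direction. TCOF1 (treacle), which recruits RNA polymerase I factors to ribosomal DNA, was at 18389 and 7104 in TE5 and at 18039 and 10552 in KYSE140, a log2 fold change of -1.05 ± 0.19 (SE) with an adjusted p of 0.0984 in edgeR. NOP10, the fourth core protein of the box H/ACA particle, was at 2986 and 1219 in TE5 and at 2731 and 1643 in KYSE140, with an adjusted p of 0.0997 in edgeR. EBNA1BP2, a large subunit factor, was at 7341 and 2205 in TE5 and at 7599 and 4047 in KYSE140, with an adjusted p of 0.0849 in edgeR. These 3 genes were lower in both lines, but their adjusted p lay close to the threshold. None of the 3 was called by edgeR without either scramble library (adjusted p from 0.308 to 0.894) or with protein-coding transcripts alone (0.114 to 0.127), and NOP10 was not called without TE5 shTP63 (0.105).

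Of other growth genes, the 78 cytosolic ribosomal protein genes were lower in TE5 upon TP63 silencing for 77 of 78, with a median of -0.40. In that pair 45.8% of all genes, and 63.8% of those with a mean of at least 1000 normalized counts, were lower. In KYSE140 upon SOX2 silencing 4 of 78 were lower, with a median of 0.38, against 44.9% of all genes and 41.6% of those above that level. The 42 translation factors had a median of -0.44 in TE5 upon TP63 silencing and -0.01 in KYSE140. EIF4EBP1, which restrains cap-dependent translation, fell over both lines, at 2999 and 1464 in the TE5 and 21180 and 13006 in the KYSE140 pair, with an adjusted p of 0.0997 in edgeR, a call that was likewise lost without either scramble library and with protein-coding transcripts alone. The 43 genes of DNA replication and nucleotide synthesis were lower in TE5 upon TP63 silencing for all 43 (45.8% of all genes), with a median of -0.79. Upon SOX2 silencing in TE5 they had a median of -0.42, where the ribosome biogenesis genes were at -0.09. PAICS, an enzyme of purine synthesis, was at 23197, 4919 and 9577 in the TE5 scramble, shTP63 and shSOX2 libraries. In TE5 upon TP63 silencing the replication genes therefore differed at least as much as the ribosome biogenesis genes.

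**Figure D4:**
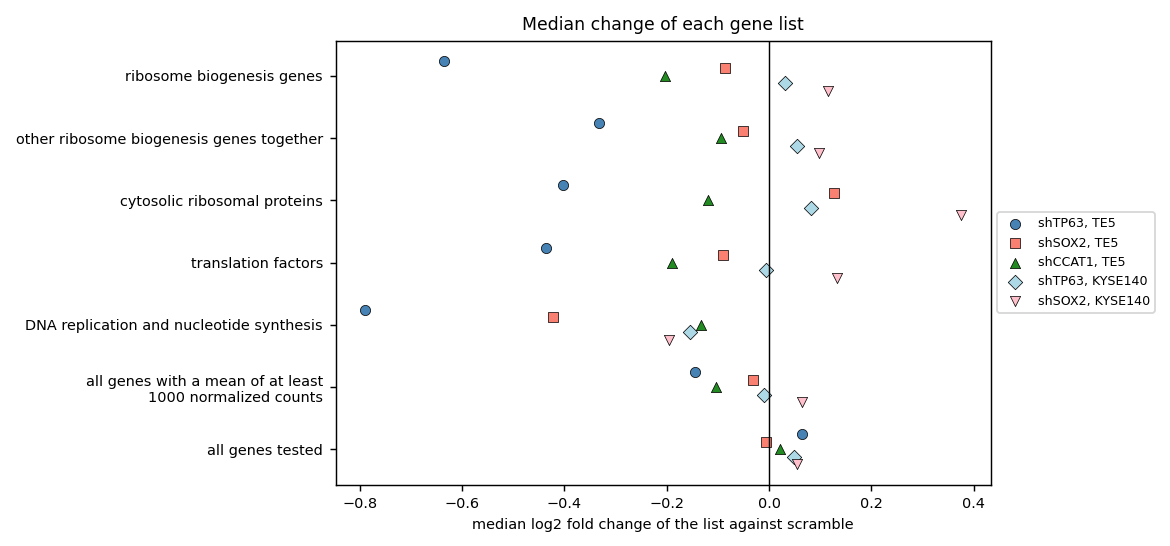
Median log2 fold change against scramble (horizontal axis) of each gene list (vertical axis) in the 5 knockdown pairs, 1 symbol per pair. For TE5 shTP63 the medians of all 5 lists of growth genes lie between -0.79 and -0.33, while all genes tested lie at 0.06. For KYSE140 shTP63 the ribosome biogenesis genes lie at 0.03.

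The edgeR fit called far more genes between the lines than upon either silencing. The members' median log2 difference between the lines (TE5 minus KYSE140) was 0.48, and 0.72 without the TE5 shTP63 library. Members lay on both sides of 0, from -3.004 (FBL) to 2.39 (RRS1), so that this signed median does not measure size. Median levels of the 39 members were 51.5 TPM in the TE5 and 27.9 TPM in the KYSE140 scramble library, and their summed levels 5706 and 5224 TPM. NPM1 was the highest member in all 7 libraries, from 1824 to 2740 TPM. Per length, UTP20 or EMG1 was the lowest in every library, from 1.39 to 7.73 TPM. In the edgeR fit 26 members were higher and 6 were lower in TE5, where 66.1% of all genes were called in either direction, 34.3% higher and 31.8% lower. No lane held libraries of both lines, so that line and lane cannot be told apart in these values. The 3 libraries of each line did not overlap for 21 members (53.8%), 16 higher in TE5 and 5 higher in KYSE140, where 62.7% of all genes did not overlap. By the fit the called share of members (32 of 39) was above that of all genes and by overlap below it. Without the TE5 or the KYSE140 scramble library the fit called 19 of 39 members, slightly under the 50.6% and 50.7% of all genes called then.

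FBL had the largest difference of all members. It was at 7015, 3442 and 7642 normalized counts in TE5 and at 43888, 46014 and 47525 in KYSE140 with scramble, shTP63 and shSOX2, a log2 difference of -3.004 ± 0.23 (SE, TE5 minus KYSE140) with an adjusted p of 4.31e-05 in edgeR. Its 2 most abundant transcripts, both protein-coding, each showed it, the first at 3548 estimated counts in the TE5 and 16277 in the KYSE140 scramble library. UTP15 (-1.61), PPAN (-1.43), PES1 (-1.003), TSR1 (-0.59) and NPM1 (-0.32) were also lower in TE5. Much higher in TE5 was RRS1, a large subunit assembly factor, at 4506, 2740 and 3382 in TE5 and at 629, 691 and 667 in KYSE140, a log2 difference of 2.39 ± 0.18 (SE) with an adjusted p of 4.18e-05 in edgeR. UTP20 (1.34), NIP7 (1.31), NOP2 (1.27) and LYAR (1.23) followed. Some of these reads could have been shared: 48.6% of the 31-base words of PPAN and 52.6% of those of BOP1 occur in transcripts of other genes, PPAN mostly in its readthrough transcript with P2RY11. For NPM1, which has many pseudogenes, it is 24.6%.

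**Figure D5:**
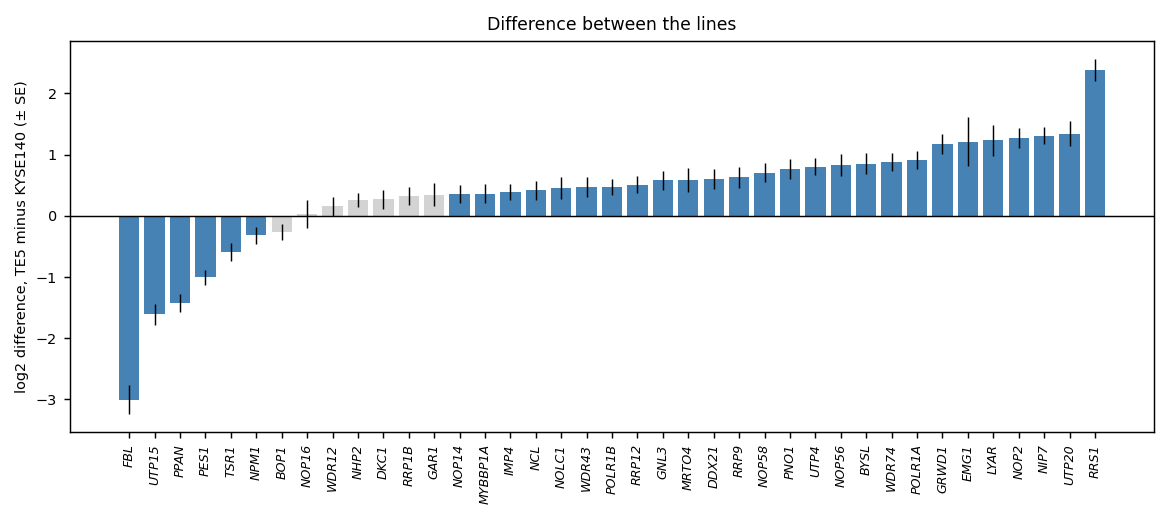
Log2 difference between the lines, TE5 minus KYSE140 (vertical axis, ± SE from the edgeR fit of 6 libraries), for the 39 members (horizontal axis, sorted), with called members in blue and the rest in grey. FBL lies at -3.004 and RRS1 at 2.39, and more members lie above 0 than below.

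The genes beside these members were looked at after the members' values were seen. Of the 11 members called and at least 2-fold different, the median of the tested genes within 500 kb had the member's sign for 8 (72.7%), as it had for 69.9% of all 10014 such genes. Within 500 kb of FBL (chr19:40325098-40337019), 22 of 26 tested genes were lower in TE5, 15 of them called and at least 2-fold lower, with a median log2 difference of -1.27. Around UTP15 (chr5:72861268-72879205) all 11 tested genes were lower in TE5, with a median of -2.56. Around RRS1 12 of 13 and around NIP7 (chr16:69371899-69377009) all 20 were higher in TE5, with medians of 1.64 and 1.12. Around PES1 21 of 27 were lower, with a median of -0.90, whereas around PPAN the median was -0.27 with 25 of 40 lower, and EMG1 and NOP2 lay among near even numbers of higher and lower genes. The neighbours went the other way around LYAR (median -0.26, 6 of 9 lower), GRWD1 (median -0.48, 25 of 40 lower) and UTP20 (median -0.12, 3 of 5 lower), which were higher in TE5.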

How the data were processed

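Libraries from RNA of the ESCC lines were read from both ends (100 bp), and transcripts were quantified by the authors with kallisto, which used Ensembl V82 transcript models of hg19. Deposited per library were estimated counts and TPM per transcript, which the authors made without pooling, together with transcript lengths (68532611 to 98036494 estimated counts per library). Transcripts were matched by identifier to GENCODE 44 mapped to GRCh37, which assigned 182863 of 196354, and the transcripts not matched (6.31% to 6.55% of counts) were left out, so that a gene whose main transcript is among them, such as EMG1 or NOP16, is undercounted. CCAT1 was taken as 1 transcript, which GENCODE 44 lists under another gene's name, so that what its counts cover is uncertain. Estimated counts were summed per gene, rounded for the fits, and scaled by TMM. Pair values are log2 ratios with a pseudocount of 1, over genes with at least 10 counts in 1 library of the pair, called at 1.5-fold, with no test. Fits over both lines used edgeR 4.0.16 in R 4.3.3 with the line as a block, which leaves 2 residual degrees of freedom, and DESeq2 1.42.0 as an alternative; adjusted p-values come from these tools across all genes. The fit was tested on simulated counts. Nothing says that libraries came from separate cultures, so that p-values measure only the spread between these libraries. Intervals cover counting error only. Start-site windows were read from GRCh37.

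The members and all gene lists were chosen with earlier results of these data known. Named with values per library were members that were among the 3 lowest and 3 highest of a pair (at least 100 counts), those passing a fit or past 1.5-fold in both lines, and NCL, NPM1, FBL, DKC1, POLR1A and POLR1B. Of other lists, the 2 lowest and 2 highest of a pair could be named, besides MYC and the silenced genes. Alternatives were DESeq2 size factors, no TMM factors, TPM, other count minimums and pseudocounts, a 2-fold threshold, protein-coding transcripts alone, no block, all 7 libraries and each library left out.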

Additional observations from a re-analysis of the deposited data

Results flagged for a closer look

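The same silencing gave values of opposite sign in TE5 and KYSE140 for several results, and with 1 library per condition none of these differences was tested. Upon TP63 silencing the members' median log2 fold change was -0.63 in TE5 and 0.032 in KYSE140, where it was -0.014 with DESeq2 size factors. FBL was at -1.03 and 0.068, LYAR at -0.95 and 0.43, WDR43 at -0.59 and 0.10, NCL at -0.68 and 0.039, and EMG1, thinly counted, at 0.61 and -1.13. Upon SOX2 silencing the members' median was -0.087 in TE5 and 0.11 in KYSE140, both small, and in TPM the signs no longer differed, with -0.058 and -0.050. UTP20 was at -0.27 and 0.68.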

How the results depend on the processing

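The direction in TE5 upon TP63 silencing held under every pair alternative tried (37 or 38 members below 0), while its size did not: 23 members were at least 1.5-fold lower, 9 without TMM factors (median -0.49), 6 in the authors' TPM (median -0.44) and 1 at 2-fold, and EMG1 was not past 1.5-fold with a pseudocount of 10, giving 0 higher, also 0 at 2-fold or above 1000 counts. Without TMM factors the median of all genes moved from 0.06 to 0.21 in this pair and from 0.02 to 0.19 for CCAT1 silencing, a shift common to all genes of the pair. CCAT1 silencing gave medians of -0.030 (21 members below 0) without TMM factors and -0.095 in TPM, with 0 members 1.5-fold lower in both and at 2-fold, and 1 with protein-coding transcripts alone, and 0 were 1.5-fold higher above 1000 counts. SOX2 silencing in TE5 gave 0 members 1.5-fold higher in TPM, with protein-coding transcripts alone, at 2-fold and above 1000 counts. In KYSE140, TP63 silencing gave a median of -0.014 (21 members below 0) with DESeq2 size factors, 8 members below 0 without TMM factors and 0 members 1.5-fold lower above 1000 counts. SOX2 silencing in KYSE140 gave medians of 0.0215 (18 members below 0) without TMM factors and -0.050 (23 below 0) in TPM, with 2 members 1.5-fold lower in both, 0 above 1000 counts, and 0 higher in TPM and at 2-fold. The median of all genes moved in these KYSE140 pairs too. It went from 0.049 to 0.003 with DESeq2 size factors upon TP63 silencing. Upon SOX2 silencing it went from 0.055 to -0.038 without TMM factors and to -0.060 in TPM. The comparison above 1000 counts, those of knockdowns with each other and the genes beside members were added after the data were seen.

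In the fits over both lines, calls over all genes moved with most choices. TP63 silencing had 174 genes lower and 46 higher, with DESeq2 1322 and 529 (1 member), without a filter 770 and 442, and with protein-coding transcripts alone 4 and 2. SOX2 silencing had 29 and 5, with DESeq2 464 and 239, without a filter 250 and 140, with protein-coding transcripts alone 3 higher and with all 7 libraries 8 higher. TP63 against SOX2 silencing had 565 and 423, with DESeq2 1591 and 1030 (3 members), and without a filter 1132 and 918 (1 member, BYSL). Without the replicate block 0 genes were called lower and 0 higher in each of these 3 contrasts, because the difference between the lines then entered the spread. Leaving out 1 library at a time gave 0 to 1317 lower and 0 to 814 higher genes with 0 to 18 members for TP63 silencing, 0 to 580 and 0 to 339 with 0 members for SOX2 silencing, 75 to 1432 and 52 to 972 with 0 to 15 members between them, and 6199 to 7183 and 6684 to 7704 with 19 to 35 members between the lines. The lowest counts for either silencing, 0, came without either scramble library, and the 18 and 15 members came without KYSE140 shTP63. The 19 members between the lines came without either scramble library. No paired analysis beyond the line block was possible because the labels give no replicate numbers.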
